A study of Mus musculus with 4 samples.

Results

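The genes described here are 43 mouse genes of the ATF4 response. They comprise the transcription factor genes Atf4 and Atf5 with their partners and feedback genes, enzymes of amino acid and mitochondrial folate metabolism, amino acid transporters and 12 cytosolic tRNA synthetases. They were listed by symbol and looked up in a culture table and a tumour table of 35604 gene rows each. A member counted as measured where its level was estimated and reached 1 FPKM in at least 1 library of a table. This held for 39 members in culture, out of 12676 genes compared, and for 42 members in tumours, out of 15550. The same 39 were measured in both tables.

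ATF4 is a transcription factor whose messenger RNA is translated when the initiation factor eIF2alpha is phosphorylated, as happens under amino acid shortage, unfolded protein in the endoplasmic reticulum, haem shortage or viral RNA. Together with C/EBP partners it binds composite elements near genes that import, make and charge amino acids. Much of its control is translational, so the level of Atf4 RNA does not give the amount of ATF4 protein.

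The cells were ESC-FC1801, mouse embryonic Schwann cells of FVB/N background with a floxed Nf2 gene deleted in culture by a Cre adenovirus. All groups carry this deletion, so no group shows the drug in cells with intact Nf2, and tumour pieces also hold host cells. NXD30001, which the series names as an inhibitor of the chaperone HSP90, was given at 1 µM for 24 h in culture, against DMSO for 24 h. Mice bearing an ESC-FC1801 tumour received 100 mg/kg NXD30001 or vehicle 3 times a week for 4 weeks. The age of the mice, the number of tumours behind a library and the time between last dose and collection are not given in the sources used here. There were 4 groups with 1 library each, so no value has a replicate error and no test was run. "Higher" and "lower" describe these libraries only.

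Levels are FPKM, which are scaled to transcript length and library size. A difference is the treated minus the untreated library on the log2(FPKM + 1) scale, which understates changes of low genes. The implied error is the authors' log fold divided by their test statistic, on the log2 scale, and holds no biological spread. It belongs to the plain log2 ratio without a pseudocount, so counts past 2 implied errors were taken on that ratio. Its median at 30 to 100 FPKM was 0.69 in culture and 0.30 in tumours, so culture differences were the less precise. The number of fragments per library is unknown. Of the Schwann markers, 8 of 10 were measured in culture. Sox10 was at 8.42 FPKM in the DMSO cells, whereas S100b stayed under 1 FPKM in all 4 libraries.

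Of the 43 members, 32 had an entry in the RefSeq promoter table (GRCm38.p6), which holds 250 bases before and 50 bases from each start site on. The 11 others were Eif4ebp1, Cth, Aldh1l2, Slc7a5, Slc7a3, Slc1a5, Cars, Lars, Mars, Nars and Wars. The letters TGATGNAA, the core of the composite element for ATF4 and C/EBP, were searched on both strands. They were found for 13 of the 32 members (40.6%) and for 4.51% of all 27025 genes with an entry. The stricter form TGATGCAA, which is contained in the first, occurred for 9 members (28.1%) and 1.03% of all genes. The members were listed as ATF4-linked genes, so this share describes the list and not the drug. Sites of 12 of the 13 members are printed because each marks a gene that carries the element next to its start site. Each line runs 5′ to 3′ on the strand of the gene, with the matching letters in capitals.
Asns: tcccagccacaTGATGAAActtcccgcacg
Pck2: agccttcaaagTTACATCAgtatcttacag
Pycr1: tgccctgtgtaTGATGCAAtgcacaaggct
Chac1: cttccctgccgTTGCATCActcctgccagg
Trib3: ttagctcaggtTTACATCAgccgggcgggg
Nupr1: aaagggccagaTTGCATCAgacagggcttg
Slc1a4: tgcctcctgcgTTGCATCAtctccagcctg
Vldlr: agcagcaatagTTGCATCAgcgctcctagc
Gars: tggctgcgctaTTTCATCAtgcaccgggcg
Iars: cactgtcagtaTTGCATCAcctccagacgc
Tars: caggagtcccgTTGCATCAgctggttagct
Yars: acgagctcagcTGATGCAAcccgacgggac

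The Asns element begins 23 bases before the start site, at chr6:7693214-7693243 (minus strand) for the stretch shown, and lies in an exon of a longer Asns transcript of GENCODE M21. Those of Pck2 (chr14:55540152-55540181, plus strand) and Pycr1 (chr11:120643833-120643862, minus strand) both begin 103 bases before the start, outside annotated exons. The Chac1 element (chr2:119351038-119351067, plus strand) begins 193 bases before the start and the Nupr1 element (chr7:126625562-126625591, minus strand) 110 bases before it. Among the synthetases the elements of Gars (chr6:55037960-55037989, plus strand) and Tars (chr15:11399655-11399684, minus strand) begin 30 and 15 bases before the start. Those of Yars (chr4:129189895-129189924, plus strand) and Iars (chr13:49682126-49682155, plus strand) begin at bases 4 and 8 of the transcript. The element of Slc1a4 (chr11:20332699-20332728, minus strand) spans the start site, and that of Trib3 (chr2:152344028-152344057, minus strand) begins at base 15 of the transcript. The element of Vldlr (chr19:27216809-27216838, plus strand) lies 200 bases before one of its 2 listed starts. Those of Nupr1, Slc1a4, Iars, Yars and Vldlr also lie in annotated exons of their own genes. No match was found in the windows of Atf4, Ddit4, Psph, Psat1, Phgdh, Shmt2, Mthfd2 or Mthfd1l, which says only that these letters are not in those 300 bases.

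The Pck2 promoter is printed in full as the member called in the tumours whose 250 bases before the start (chr14:55540016-55540265, GRCm38.p6, plus strand) hold no annotated exon, with the same element in capitals.
Pck2 upstream: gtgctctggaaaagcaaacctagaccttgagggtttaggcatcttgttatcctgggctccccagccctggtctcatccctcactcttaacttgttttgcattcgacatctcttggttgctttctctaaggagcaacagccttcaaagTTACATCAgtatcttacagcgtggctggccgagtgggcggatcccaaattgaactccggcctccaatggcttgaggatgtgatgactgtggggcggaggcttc

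In the tumours nearly the whole set was lower in the treated library. Of 42 measured members 38 were lower, 90.5% against 52.7% of all compared genes, and 4 were higher (9.52%, all genes 47.3%). The median difference was -0.37, and -0.03 over all genes. The shift was broad and mostly small. Only 3 members, Psph, Pck2 and Cth, were at least 2-fold lower, which is 7.14% against 6.93% of all genes, and Slc7a3 alone was at least 2-fold higher (2.38%, all genes 7.32%). At 1.5-fold 16 members were lower (all genes 14.8%) and 2 higher (all genes 14.2%). By more than 2 implied errors 14 were lower on the plain log2 ratio (all genes 7.81%) and 1, Ddit4, was higher (all genes 8.20%). The counts were the same with the pseudocount.

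In culture no shift to one side was seen over the set. Of 39 measured members 21 were lower by any amount, 53.8% against 59.4% of all compared genes. The median was -0.05, and -0.25 over all genes. At least 2-fold lower were 8 members (20.5%, all genes 24.8%), namely Ddit4, Mthfd1l, Aldh1l2, Mthfd2, Vldlr, Aldh18a1, Slc7a3 and Cebpg. At least 2-fold higher was 1 member, Cth (2.56%, all genes 12.6%). At 1.5-fold 10 were lower (all genes 37.6%) and 6 higher (all genes 21.8%). On the plain log2 ratio 7 were lower by more than 2 implied errors (all genes 16.5%) and 1, Cth, higher (all genes 6.97%). With the pseudocount, 5 were lower by that margin (all genes 10.7%) and 0 higher (all genes 4.49%), as Aldh18a1, Slc7a3 and Cth then stayed within it. The authors' deposited table calls 3 members lower (all genes 7.14%) and 0 higher (all genes 2.75%). After centring on the median of all genes the counts were 6 lower and 4 higher, the latter being Cth, Slc7a5, Slc1a5 and Eif4ebp1, and 18 of the 39 were lower by any amount. The same centring took the share of lower genes among all genes past 2-fold from 66.3% to 50.8%.

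**Figure D1:**
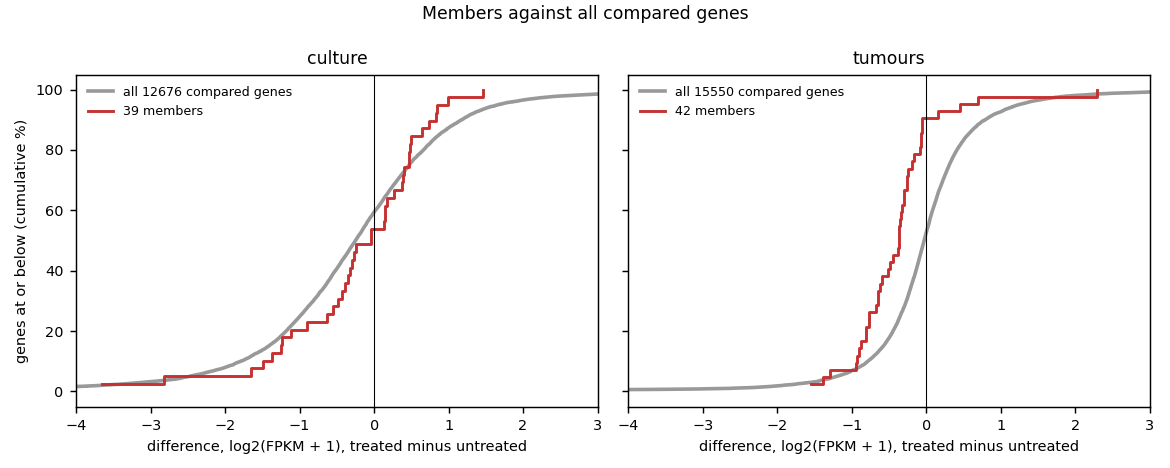
Cumulative share of genes (vertical axis, %) at or below a given difference (horizontal axis, log2(FPKM + 1), treated minus untreated) for the members (red steps) and all compared genes (grey), in culture (left) and tumours (right). In tumours the red steps reach 90.5% at 0, where the grey line is at 52.7%; in culture the red steps are at 53.8% and the grey line at 59.4% there.

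**Figure D2:**
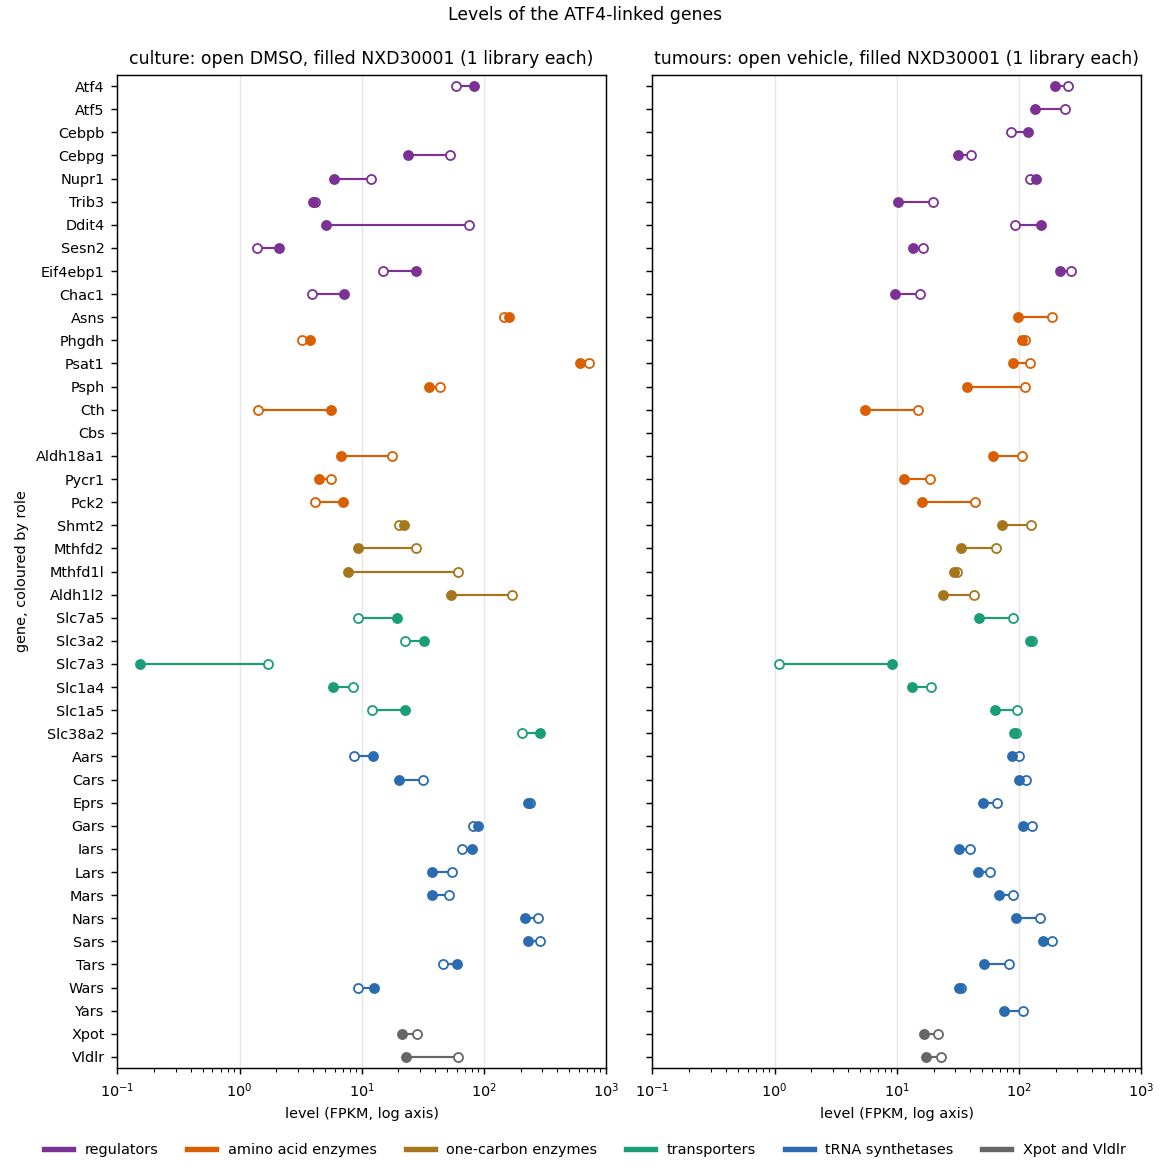
Level of each member in FPKM (log axis) in the untreated (open) and treated (filled) library, 1 library each, coloured by role, for culture (left) and tumours (right). In tumours the filled points lie left of the open ones except for Cebpb, Nupr1, Ddit4 and Slc7a3; a gene with no points was not measured in that table.

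In each pair of levels that follows, the untreated library comes before the treated one. Atf4 itself (ENSMUSG00000042406, mm9 chr15:80085928-80087970) was at 59.5 and 83.8 FPKM in culture, and its tumour levels were 254 and 196 FPKM. Its differences of 0.49 (implied error 0.63) and -0.37 (implied error 0.21) had opposite signs, and neither was called in the authors' deposited table. Atf5, a related factor under the same translational control, was at 238 and 135 FPKM in the tumours, with an implied error of 0.61 on -0.81. Its culture row failed estimation, and its locus is shared with Nup62 and Il4i1. Cebpg, a C/EBP partner of ATF4, was lower in both tables, at 53.1 and 24.0 FPKM in culture and 40.6 and 31.4 FPKM in tumours. Cebpb, another partner, was one of the few members higher in the treated tumour, at 85.4 and 118 FPKM. In culture it was listed at 0.318 and 0.364 FPKM and not counted as measured; its locus is shared with several rows.

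Of the feedback and stress genes downstream of ATF4, Trib3 and Chac1 were lower in the treated tumour. Trib3, a pseudokinase that restrains ATF4, was at 4.14 and 3.97 FPKM in culture and at 19.7 and 10.3 FPKM in tumours, with a tumour difference of -0.87 (implied error 0.43). Chac1, which degrades glutathione, was at 3.95 and 7.22 FPKM in culture and 15.5 and 9.67 FPKM in tumours. Nupr1, a small stress-induced nuclear protein gene, was at 12.0 and 5.99 FPKM in culture and 124 and 139 FPKM in tumours. The differences of all 3 genes in culture and of Nupr1 in tumours were smaller than their implied errors.

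The 3 members that restrain mTORC1 signalling or its output are Ddit4, Sesn2 and Eif4ebp1. Ddit4 (ENSMUSG00000020108, mm9 chr10:59412422-59414518), also a known hypoxia-induced gene, had the largest downward difference of the set in culture. Its level was 76.3 FPKM in DMSO cells and 5.13 FPKM in treated cells. The difference was -3.66 (implied error 0.86), and the authors' deposited table calls it (q-value 0.000375). In tumours Ddit4 was at 93.5 and 152 FPKM, higher by 0.70 (implied error 0.30) without a call. Sesn2, a leucine-sensing inhibitor of mTORC1, was low in culture at 1.38 and 2.11 FPKM and at 16.5 and 13.6 FPKM in tumours. Eif4ebp1, the translation repressor 4E-BP1, was at 15.03 and 27.6 FPKM in culture and, as the most abundant member in tumours, at 265 and 215 FPKM.

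**Figure D3:**
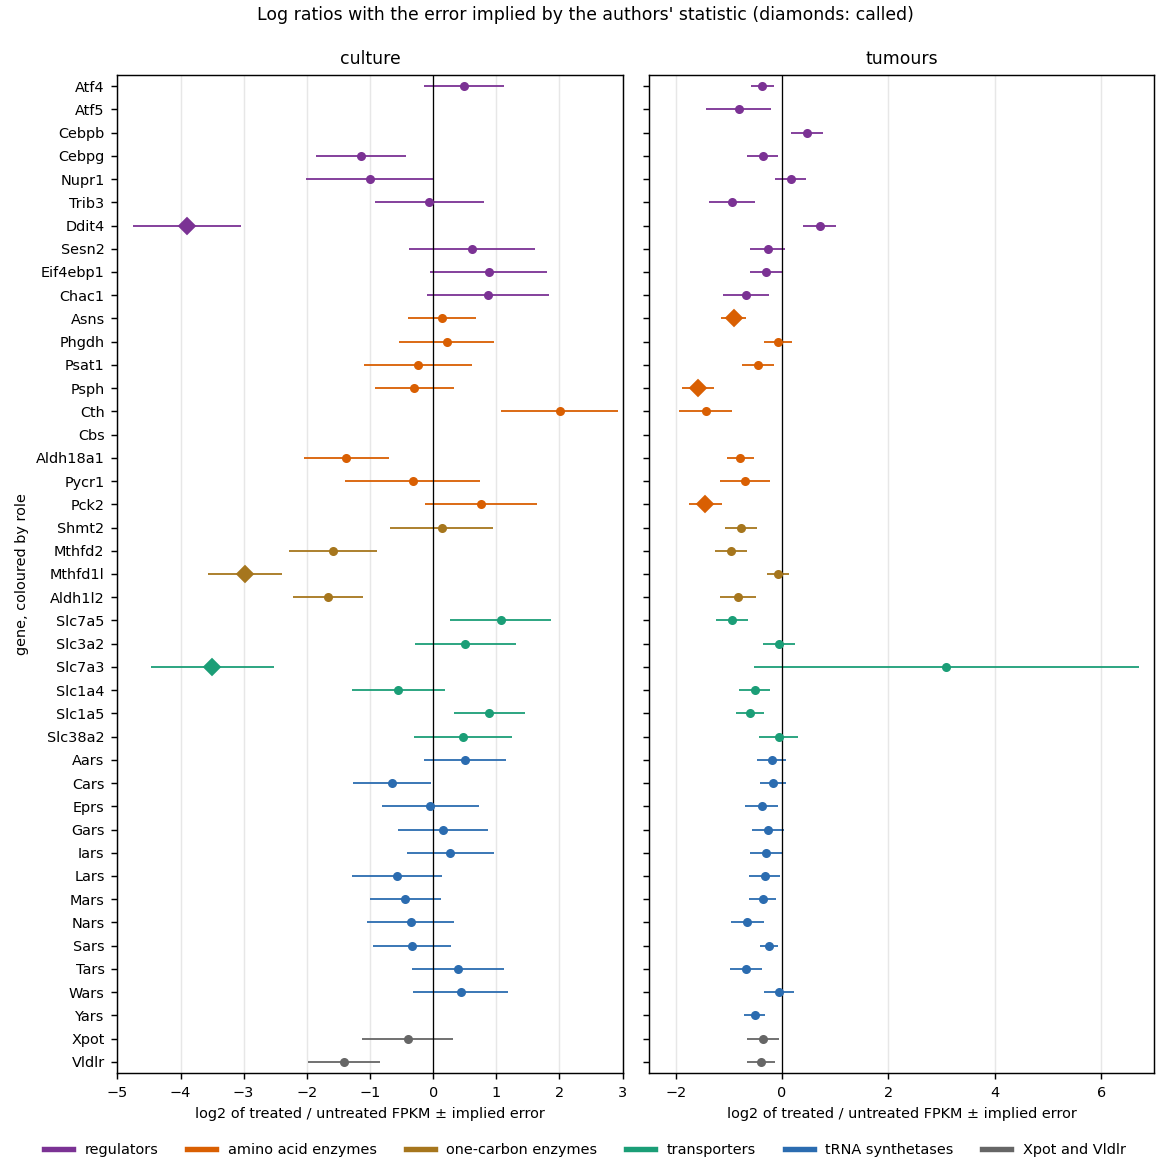
Log2 ratio of treated to untreated FPKM (horizontal axis) with the implied error as bars, for each member in culture (left) and tumours (right), coloured by role; diamonds mark genes called in the authors' deposited table. Calls are Ddit4, Mthfd1l and Slc7a3 in culture and Asns, Psph and Pck2 in tumours, all lower, and the bars are wider in culture; the axis ranges of the panels differ.

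The enzymes that make amino acids were lower in tumours as a group. All 8 measured enzymes of this role were lower in the treated tumour, with a median of -0.84. The authors' deposited table calls 3 of them lower, and these are all the calls among the 42 members (7.14%, all genes 2.45% lower). No member was called higher (all genes 3.14%). Psph (ENSMUSG00000029446, mm9 chr5:130271433-130285320) makes serine in the last step of its synthesis. Its level was 113 FPKM in the vehicle tumour and 37.6 FPKM in the treated one, with -1.56 as the difference and 0.30 as the implied error (authors' deposited q-value 1.6e-05). The steps before it differed less, with Phgdh at 112 and 106 FPKM and Psat1 at 123 and 89.9 FPKM. The serine pathway genes thus had unequal differences, from -0.07 for Phgdh to -1.56 for Psph.

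Asns (ENSMUSG00000029752, mm9 chr6:7625168-7643254), asparagine synthetase and a standard ATF4 target, had 186 FPKM in the vehicle tumour and 98.7 FPKM in the treated one. The difference was -0.91 (implied error 0.24, authors' deposited q-value 0.00856). Pck2 (ENSMUSG00000040618, mm9 chr14:56159102-56168854), mitochondrial phosphoenolpyruvate carboxykinase, was at 43.9 and 16.1 FPKM. Its difference was -1.39 (implied error 0.31, authors' deposited q-value 0.000354). Cth, which makes cysteine from cystathionine, was at 14.9 and 5.498 FPKM, a change of -1.29 (implied error 0.49) without a call. Of the proline enzymes, Aldh18a1 was at 106 and 61.9 FPKM and Pycr1 at 18.6 and 11.5 FPKM. Cbs, the enzyme before Cth, was not measured in either table, at 0.390 and 0.317 FPKM in culture and 0 and 0.0731 FPKM in tumours.

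In culture the same enzymes split into 4 higher and 4 lower, with a median of -0.05. Psat1 was the most abundant member at 725 and 614 FPKM, whereas Phgdh was at 3.26 and 3.79 FPKM. Asns was at 146 and 162 FPKM, and Psph at 43.8 and 35.6 FPKM. These 4 differences were smaller than their implied errors. Cth, at 1.41 and 5.65 FPKM, had the largest upward difference of the set (1.46, implied error 0.93, no call). Aldh18a1 was at 17.6 and 6.79 FPKM (difference -1.25, implied error 0.67), while Pycr1 was at 5.61 and 4.48 FPKM. Pck2 was at 4.19 and 7.08 FPKM.

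Mitochondrial folate enzymes were the members with the largest joint difference in culture. These enzymes carry serine-derived carbon through the mitochondrion and release it as formate. Mthfd1l (ENSMUSG00000040675, mm9 chr10:6179459-6373428), which makes formate, had 61.2 FPKM in DMSO cells and 7.76 FPKM in treated cells. The difference was -2.83 (implied error 0.58, authors' deposited q-value 2.7e-05), at a locus also given for a U1 row. Mthfd2, the dehydrogenase and cyclohydrolase before it, was at 27.9 and 9.32 FPKM, differing by -1.49 (implied error 0.70) without a call. Aldh1l2, which oxidises mitochondrial formyl-folate, was at 171 and 53.9 FPKM, differing by -1.65 (implied error 0.55) without a call. Shmt2, the serine-splitting enzyme at the head of the pathway, did not follow them, at 20.3 and 22.3 FPKM. In culture 3 of these 4 genes were thus at least 2-fold lower, where 24.8% of all genes were.

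The proliferation markers were lower in the same cells, with a summed level of 1842 FPKM in DMSO cells and 144 FPKM in treated cells over the 8 measured of 9. Cytosolic folate and glycine cleavage genes were all below 0 as well (7 of 7 measured, all genes 59.4%, median -0.85). The largest difference was that of the S phase gene Tyms (95.7 and 5.76 FPKM). The number of dividing cells is not known from these levels, and any part it has in the folate gene levels was not tested. In tumours proliferation markers summed to 359 and 385 FPKM. There Mthfd2 was at 65.5 and 33.6 FPKM, Shmt2 at 125 and 73.2 FPKM and Aldh1l2 at 42.5 and 23.9 FPKM, with differences from -0.77 to -0.94. Mthfd1l was nearly level in tumours at 31.2 and 29.4 FPKM, so the gene with the largest difference of these in culture had the smallest in tumours. The 9 measured cytosolic folate and glycine cleavage genes had a tumour median of -0.07.

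Of 6 amino acid transporters, 4 were higher in culture (all genes 40.6%), with a median of 0.48. In tumours 5 of the 6 were lower (all genes 52.7%), with a median of -0.28. The culture differences of Slc3a2, Slc1a4 and Slc38a2 were smaller than their implied errors, and the 1 transporter called there, Slc7a3, was lower. Slc7a5 and Slc3a2 encode the light and heavy chains of LAT1, the exchanger of large neutral amino acids. Slc7a5 was at 9.26 and 19.5 FPKM in culture, a difference of 1.00 just under the 2-fold line on this scale, and at 89.9 and 46.8 FPKM in tumours (-0.93, implied error 0.30). Slc3a2 was at 22.7 and 32.4 FPKM in culture and nearly level at 127 and 122 FPKM in tumours.

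Slc1a5, the glutamine carrier ASCT2, was at 12.2 and 22.7 FPKM in culture and at 97.2 and 63.9 FPKM in tumours. Its relative Slc1a4, a carrier of alanine, serine and cysteine, was lower in both, at 8.48 and 5.78 FPKM and at 19.0 and 13.3 FPKM. Slc38a2, a glutamine and alanine carrier, was at 207 and 287 FPKM in culture and 94.9 and 90.6 FPKM in tumours. Slc7a3, a carrier of cationic amino acids, was near the floor. In culture it (ENSMUSG00000031297, mm9 chrX:98274548-98281359) was at 1.71 and 0.152 FPKM and called lower in the authors' deposited table (q-value 0.0126), with a difference of -1.24. In tumours it was at 1.08 and 9.20 FPKM, a difference of 2.29, but the implied error was 3.62 and there was no call.

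The cytosolic tRNA synthetases, which attach amino acids to their tRNAs, gave the most even pattern. In the tumours all 12 were lower in the treated library, with differences from -0.67 (Tars) to -0.05 (Wars) and a median of -0.31. None was 2-fold changed and none was called, and 8 of the 12 differed by more than their own implied error. Tars was at 82.6 and 51.6 FPKM and Nars at 150.1 and 95.4 FPKM. Yars was at 109 and 75.8 FPKM (difference -0.51, implied error 0.20). Mars was at 89.3 and 69.3 FPKM, Eprs at 66.2 and 50.8 FPKM and Lars at 58.0 and 46.2 FPKM. Iars, Gars and Sars were at 39.8 and 32.1, 129 and 107, and 187 and 158 FPKM. The smallest differences were those of Aars (100.1 and 87.5 FPKM), Cars (113 and 101 FPKM) and Wars (33.5 and 32.3 FPKM).

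In culture 5 of 11 measured synthetases were higher and 6 lower, with a median of -0.05 and a range from -0.63 (Cars) to 0.46 (Aars). Only Cars, at 31.7 and 20.1 FPKM, differed by more than its implied error. The most abundant were Sars at 290.1 and 230.5 FPKM, Nars at 276 and 216 FPKM and Eprs at 238 and 231 FPKM. The least abundant were Aars at 8.72 and 12.4 FPKM and Wars at 9.39 and 12.7 FPKM. Gars, Iars and Tars were slightly higher (81.0 and 90.0, 66.5 and 80.1, 46.1 and 60.4 FPKM), Lars and Mars slightly lower (55.4 and 37.3, 51.4 and 38.0 FPKM). Yars had no estimate. The loci of Aars, Cars, Iars, Lars, Mars, Sars, Wars and Yars are each given for another row, Mars with Ddit3, so reads may be split between rows there. Without rows that share a locus the culture median of the synthetases was 0.05, of the other sign.

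Xpot, which exports tRNAs from the nucleus, was lower in both tables at 28.4 and 21.4 FPKM and 21.6 and 16.8 FPKM. Vldlr, the VLDL receptor, was at 61.2 and 23.0 FPKM in culture, a difference of -1.37 (implied error 0.57), and at 22.9 and 17.5 FPKM in tumours.

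Related genes outside the set were read from companion lists. The remaining cytosolic synthetases and their scaffold genes were lower for 9 of 11 in tumours (all genes 52.7%), with a median of -0.25. In culture 7 of 11 were lower (all genes 59.4%), with a median of -0.16. Aimp2, a scaffold of the synthetase complex, had the largest tumour difference, at 77.9 and 45.1 FPKM. Qars, at 134 and 169 FPKM, and Farsa, at 33.0 and 34.8 FPKM, were higher. The mitochondrial synthetases did not share the tumour pattern: 7 of 17 were lower (all genes 52.7%) and the median was 0.11. In culture 8 of 13 of them were lower (all genes 59.4%). The authors' deposited table calls 3 of the 13 lower (all genes 7.14%), among them Nars2 (14.6 and 2.24 FPKM) and Ears2 (4.44 and 0.462 FPKM). In tumours it calls Lars2 lower, at 301 and 271 FPKM, a difference of only -0.15. The implied error of Lars2 was 0.027, far under the tumour median of 0.29 at 100 to 300 FPKM, and its locus is shared with another row. The difference between cytosolic and mitochondrial synthetases was not tested.

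The genes of the sensing step were also read. Of the eIF2alpha kinase genes, Eif2ak4 (GCN2), which senses uncharged tRNA, was at 8.33 and 8.11 FPKM in tumours and Eif2ak3 (PERK) at 7.46 and 9.42 FPKM. Eif2ak1 (HRI) was at 16.8 and 13.0 FPKM, and Eif2ak2 (PKR), itself an interferon-induced gene, at 13.0 and 6.44 FPKM. None of the 14 listed kinase, phosphatase and eIF2B genes was 2-fold changed in tumours on the log2(FPKM + 1) scale. Eif2ak2 had the largest difference there, -0.91, and its plain FPKM ratio was just past 2-fold. In culture Eif2ak4 was at 3.09 and 1.56 FPKM, Eif2ak3 at 3.38 and 5.49 FPKM, Eif2ak1 at 7.73 and 12.3 FPKM and Eif2ak2 at 20.5 and 10.9 FPKM. Impact, an inhibitor of GCN2 activation, was at 33.6 and 82.9 FPKM there, and the eIF2B subunits differed in both directions, with Eif2b2 at 6.66 and 23.8 FPKM and Eif2b3 at 12.8 and 3.97 FPKM.

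Other genes known to lie downstream of ATF4 were mixed. Ddit3, which encodes CHOP, was at 37.3 and 49.1 FPKM in culture and 55.1 and 54.6 FPKM in tumours. Atf3 was at 2.80 and 20.98 FPKM in culture and at 6.98 and 8.84 FPKM in tumours. In culture it was called higher, the single call among the 9 measured genes of that list (all genes 2.75%). In tumours Slc7a1, a cationic amino acid carrier, was at 32.7 and 13.3 FPKM and Gpt2, a mitochondrial alanine transaminase, at 42.2 and 20.5 FPKM. The authors' deposited table calls both lower, 2 of the 10 measured genes of that list (all genes 2.45%). The culture levels were 30.4 and 14.3 FPKM for Slc7a1 and 22.4 and 7.84 FPKM for Gpt2, with no call. Stc2 was at 24.0 and 12.9 FPKM in tumours and 15.9 and 6.27 FPKM in culture. Over the list 6 of 10 were lower in tumours (all genes 52.7%), with a median of -0.12 (all genes -0.03). In culture 6 of 9 were lower (all genes 59.4%), with a median of -0.70 (all genes -0.25).

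The endoplasmic reticulum genes of the unfolded protein response were lower for 9 of 13 in tumours (all genes 52.7%), with a median of -0.18. Hspa5, the chaperone BiP, was at 1376 and 790 FPKM there and at 316 and 1004 FPKM in culture, with a call in each direction in the authors' deposited tables. Amino acid transporters outside the set had a tumour median of -0.11 (6 of 11 lower, all genes 52.7%). Their culture median was -0.03 (5 of 9 lower, all genes 59.4%). Slc43a2, another LAT-type carrier, was at 1.41 and 12.6 FPKM in culture and 41.4 and 31.5 FPKM in tumours.

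**Figure D4:**
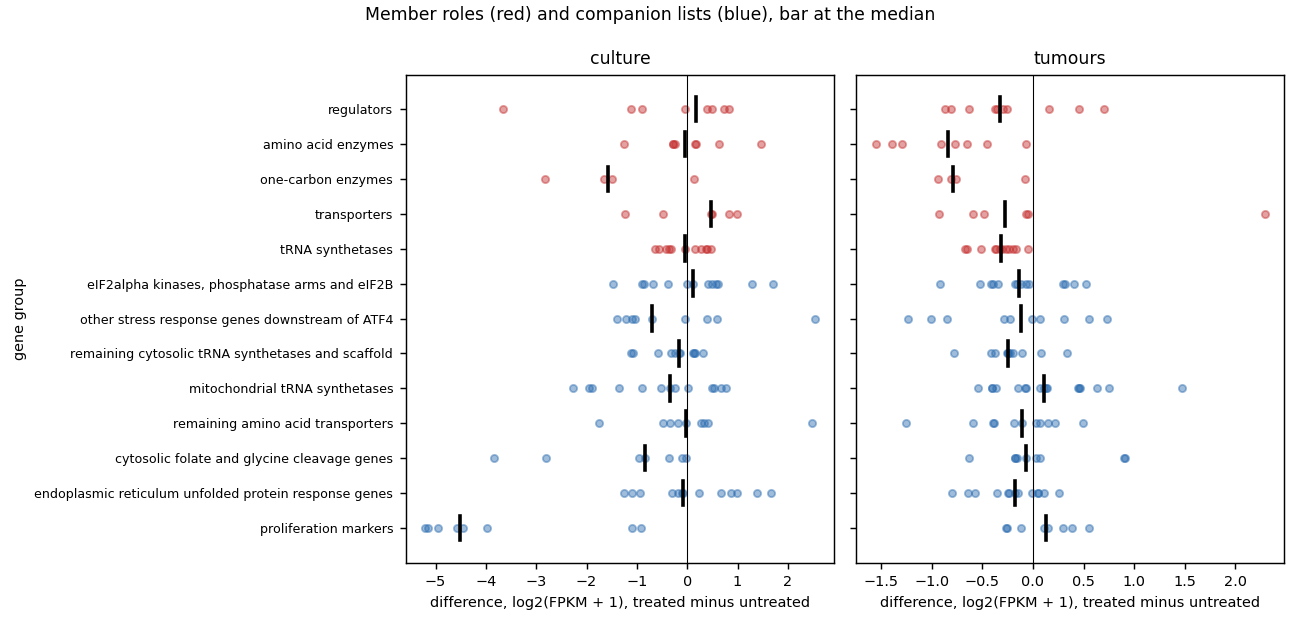
Differences (horizontal axis, log2(FPKM + 1), treated minus untreated) of single genes, 1 point each, by member role (red) and companion list (blue), with a bar at the median, in culture (left) and tumours (right, another axis range). In tumours every point of the amino acid enzymes, one-carbon enzymes and tRNA synthetases lies below 0, and in culture the one-carbon enzymes have a median of -1.57.

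The tumour libraries also differed in markers of cell types. Macrophage markers were lower for 10 of 10, their summed level going from 459 to 269 FPKM, and endothelial markers for 9 of 9, from 96.8 to 39.9 FPKM. Schwann markers were higher for 9 of 9 measured of 10, from 150 to 543 FPKM, and mast cell markers for 6 of 6 measured of 7, from 9.47 to 51.2 FPKM. Fibroblast markers summed to 3226 and 2519 FPKM over 7 genes, with 4 lower. Of the erythroid markers 4 of 5 were lower, and all 5 summed to 315 and 5.10 FPKM. Most of the treated sum was Alas2, the marker that was higher, at 0.610 and 4.72 FPKM. Of 7 T cell markers 1 was measured, Cd4 at 1.13 and 0.911 FPKM. Cd3e, Cd8a and Cd2 were listed at 0 in both tumours, and Cd3g and Cd3d were at most 0.342 FPKM. Lck had 0.791 and 1.04 FPKM in a row marked as low in data, and no adipocyte marker was measured. The part of these cells in the tumour result was not tested, and in bulk RNA fewer cells of a type and less RNA per cell cannot be told apart. In culture 1 of 9 endothelial markers was measured, Tek at 0.0324 and 2.18 FPKM, and Cdh5 was listed at 0 in both libraries. Of 10 macrophage markers 1 was measured, Cd68 at 2.32 and 1.93 FPKM, and Itgam and Cd14 were listed at 0.

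The differences in the tables were set side by side for the 39 members measured in both. Lower in both were 18 members (46.2%), against 31.6% of the 11559 genes compared in both tables. Higher in culture and lower in tumours were also 18 (46.2%, all genes 21.5%). Of these 18, only Cth, Slc7a5 and Slc1a5 differed in culture by more than their implied error, so most of the culture signs are uncertain. As 90.5% of the members measured in tumours were lower there, both shares of 46.2% largely restate the tumour shift. Lower in culture and higher in tumours were 3 (7.69%, all genes 27.5%), and 0 were higher in both (all genes 19.4%). At least 2-fold lower in both were 0 members and 1.52% of all genes. Mthfd2 and Aldh1l2 were lower in both by more than 2 implied errors on either scale, and Aldh18a1 on the plain log2 ratio only.

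**Figure D5:**
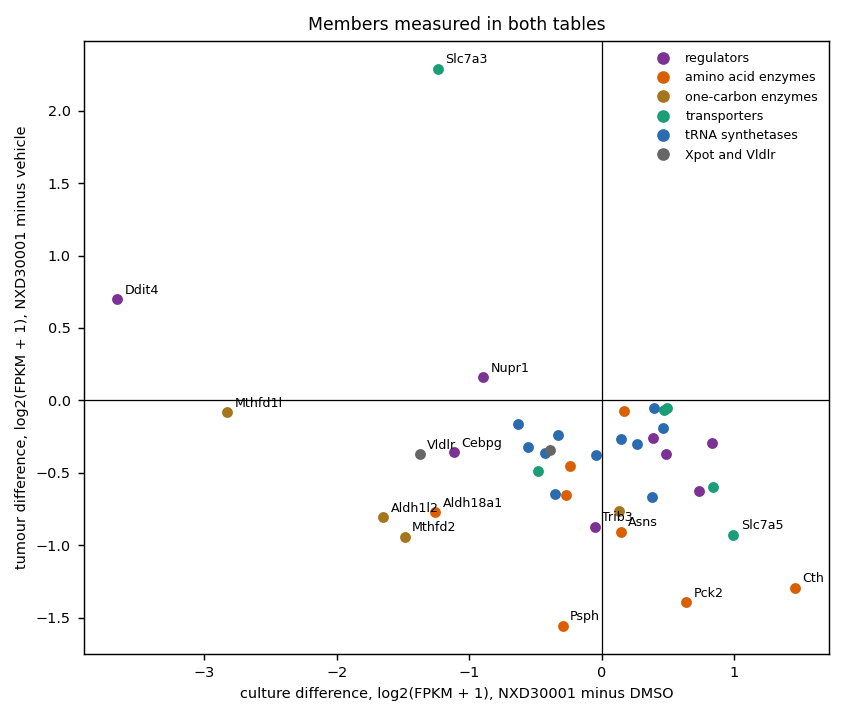
Tumour difference (vertical axis) against culture difference (horizontal axis), both on the log2(FPKM + 1) scale, for the 39 members measured in both tables, coloured by role. Cth and Pck2 lie to the lower right and Slc7a3 and Ddit4 to the upper left, and no point has both differences above 0.

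The members with the TGATGNAA element were compared with those without it. In tumours 12 of 13 with it were lower, with a median of -0.51, and 16 of 18 measured without it, with a median of -0.35. In culture 5 of 12 with it were lower (median 0.15) and 10 of 16 without it (median -0.27). The culture contrast was not seen with the stricter TGATGCAA. There 4 of 8 members with it were lower (median -0.003) and 11 of 20 without it (median -0.05). In tumours 8 of 9 with TGATGCAA were lower (median -0.48) and 20 of 22 without it (median -0.37). Of the members called in tumours, Asns and Pck2 hold TGATGNAA and Psph does not.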

How the data were processed

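RNA was sequenced from cultured cells and tumours, 1 library for each of 4 groups. The submitters' processing notes list, without roles, mm9 as the build and as tools Cuffdiff, Cufflinks 1.0.2, TopHat 1.2.0 and CASAVA. Whether the counting used strand was not stated. The 2 deposited tables, made separately, hold FPKM levels by the authors. Per the file headers they also hold the authors' natural log fold, test statistic and q-value, used here as scores because log folds carry infinite marks and q-values reach 2.05, a p-value and a linear ratio. Their test compares libraries, not conditions, and their calls all had q-values under 0.05. A label calls all 4 samples cultured cells, while titles and treatments place 2 of them in tumours, which was followed.

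A FAIL row is a failed estimate listed at 0, of which culture had 705 and tumours 347. These and the LOWDATA rows, 61 and 449 in number, did not enter. Genes with at least 1 FPKM in either library were compared, with a pseudocount of 1 FPKM. A repeated symbol entered with its highest row. Calculations used Python 3.11.15, pandas 2.3.3 and numpy 2.4.6, and were checked on simulated tables. Alternatives were other pseudocounts, level minimums, scalings, row choices and call rules. The members, the companion lists and the rule for named genes (every member, the kinase genes, Ddit3, Atf3 and up to 4 genes per companion list with the largest differences) were chosen with earlier results of these data known. Promoters came from RefSeq (GRCm38.p6) by symbol, and exons from GENCODE M21 on the same build. Some items are not reported here.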

Additional observations from a re-analysis of the deposited data

Results flagged for a closer look

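For 4 members the treated library differed in opposite directions in culture and in tumours, by at least 1 on the log2 scale in one and at least 0.5 in the other. With 1 library per group the difference between the settings was not tested, and the tables were normalized separately. Ddit4 was lower in culture (-3.66) and higher in tumours (0.70), so the tumour difference exceeded the culture one by 4.35. Slc7a3 did the same (-1.24 and 2.29, apart by 3.53), from levels near the floor and with a tumour implied error of 3.62. Cth was higher in culture (1.46) and lower in tumours (-1.29), with a tumour minus culture value of -2.76. Pck2 had 0.64 in culture and -1.39 in tumours, a value of -2.03; its culture difference was smaller than its implied error of 0.88.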

How the results depend on the processing

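No paired analysis was possible because each group has 1 library, so no replicate could be left out either. The tumour medians stayed below 0 under all alternatives run for them, that over all members between -0.48 and -0.34. The tumour count of 38 lower members was the same under each, except for 26 of 29 without rows that share a locus. These recounts were chosen after seeing the data. A pseudocount cannot change the sign of a difference, and the level minimums and other row choices left these 38 members in place. Apart from the rows that share a locus, only the scalings could have changed this count. The tumour count past 2-fold depended on the call rule: at 1.5-fold 2 members were higher and 16 lower, and the authors' deposited table calls 0 higher. In culture the direction of small medians depended on scaling. The median over members was 0.20 after centring and 0.13 with upper quartile scaling, and that of the synthetases 0.21 and 0.18. Without rows that share a locus the synthetase median in culture was 0.052. The culture count of members at least 2-fold higher was 2 with a pseudocount of 0.1 FPKM, 0 with 5 FPKM, 4 after centring, 4 with upper quartile scaling, 6 at 1.5-fold and 0 by the authors' calls, which give 3 lower. Of 337 single-member values in culture 1 moved by more than the implied error (Slc7a3, -2.85 with a pseudocount of 0.1 FPKM), and of 365 in tumours 0 did. Most of these values could not move. Level minimums and row choices only keep or drop a member, since each has 1 row. Centring shifted every culture value by 0.25, less than any implied error of a member there. The counts therefore speak mainly to the pseudocount. Leaving out rows that share a locus leaves 29 members with a value in each table. Depth is unknown, and at 1 to 3 FPKM the median implied error was 1.01 in culture and 0.81 in tumours.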

Other observations

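The promoter element was also read in genes outside the set, matched to the RefSeq promoter table by symbol. Only the members were left out of these genes, so companion genes known to lie downstream of ATF4 could be among them. In tumours 56 other compared genes with TGATGCAA had a median difference of -0.20. Of these, 33 were lower (58.9%), 7 at least 2-fold lower (12.5%) and 1 at least 2-fold higher (1.79%). The 8429 other genes without it had a median of -0.02, with 52.0% lower, 4.73% at least 2-fold lower and 5.15% at least 2-fold higher. For the looser TGATGNAA the 219 other genes with it had the same median as those without, -0.02. In culture the 40 other genes with TGATGCAA had a median of -0.63 and the 7031 without it -0.20. For TGATGNAA the culture median was -0.46 over 175 other genes with it and -0.20 over 6896 without it. Members with TGATGNAA had the higher median in culture, so the other genes went the other way. These are descriptions with no test.

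Across the 39 members measured in both tables, the culture and tumour differences had a Pearson correlation of -0.37 and a Spearman correlation of -0.15. The points share their libraries within each table, and the genes are not independent replicates.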
